A study of Mus musculus with 12 samples.

Results

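The genes described here are 44 genes of the mouse genome that carry out DNA replication or supply it with nucleotides. They were chosen by gene symbol in the platform annotation, out of 15964 genes named on the arrays, and fall into 11 complexes and functions: the MCM helicase, the origin recognition complex, licensing factors, origin firing factors, polymerase alpha with primase, polymerases delta and epsilon, the sliding clamp with its loader, the single-strand binding protein RPA, Okazaki fragment joining, nucleotide supply, and chromatin assembly. Total RNA of 4 isolated mouse germ cell types was measured on 3 Affymetrix designs, U74Av2, U74Bv2 and U74Cv2, whose probe sets are largely for different transcripts. These were spermatogonia of type A and of type B, pachytene spermatocytes, and round spermatids, with no treatment named for any of them. Each cell type was hybridised to 1 array of each design, 12 arrays in all, so differences have no replicate error and none was tested. The labels give neither the strain, age and number of the mice nor how the cells were isolated.

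Replication starts where the origin recognition complex, Cdc6 and Cdt1 load the ring-shaped MCM helicase onto DNA, and kinases and further factors then switch the helicase on. Polymerase alpha with primase begins each strand, polymerases delta and epsilon extend it on the PCNA clamp, RPA covers the single-stranded DNA, and Fen1 and Lig1 join the Okazaki fragments. In the testis, spermatogonia divide by mitosis, the last round of DNA replication precedes meiotic prophase, and pachytene spermatocytes and round spermatids do not replicate their genome. RPA, ligase and polymerases also work in repair and meiotic recombination, and replication genes are used by any dividing cell, somatic cells included.

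A level here is a microarray signal in MAS5 units, which can be compared between cell types for 1 probe set but not between probe sets, and not as molecules per cell. Where a gene had several probe sets, the one brightest on average stood for it. Signals below a floor between 50.01 and 50.03 units were set to it before ratios were taken, so where 1 of the cell types compared lay there the fold is only a minimum and is given as "at least". The highest of 228 negative control readings was 103.5 units, in type B spermatogonia on U74Cv2, and 22 lay over the floor. Readings over the floor occurred on all U74Cv2 arrays and on the U74Bv2 arrays of both spermatogonial types. Levels near the floor are not told from background on those arrays. On U74Av2, whose probe sets stood for 34 genes, the highest negative control reading was 32.7, under the floor. As a measure of technical scatter, control probe sets shared by the 3 designs gave log2 ratios whose SD within a probe set was 0.26 for type B over type A spermatogonia (30 control probe sets), 0.23 for pachytene spermatocytes over type B spermatogonia (31) and 0.44 for round spermatids over pachytene spermatocytes (29). It holds no spread between animals or cell preparations.

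Of the 44 genes, 43 exceeded the floor in some cell type and 32 in every one. Dbf4 was at the floor in all of them. In type A spermatogonia 41 genes were over the floor, in type B 42, in pachytene spermatocytes 37 and in round spermatids 34. Of all measured genes 84.3% were over it in type A spermatogonia, 86.8% in type B, 77.4% in pachytene spermatocytes and 77.6% in round spermatids. The highest signal of a gene was in type A spermatogonia for 16 genes and in type B spermatogonia for 17, against 28.7% and 29.9% of the 13003 named genes measured. It was in pachytene spermatocytes for 7 genes and in round spermatids for 3, against 20.1% and 21.3% of measured genes. The lowest signal was in round spermatids for 22 of the 43 genes and in pachytene spermatocytes for 11. The shares of all measured genes were not computed for the lowest signal, so these counts cannot be set against them.

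Of the 3 steps, that between pachytene spermatocytes and type B spermatogonia held the most differences. There 16 of the 43 genes were at least 2-fold lower in pachytene spermatocytes, where 21.9% of all measured genes were, and 5 were at least 2-fold higher, where 16.2% were. The 16 were Mcm2, Mcm3, Mcm4, Orc1, Orc6, Cdt1, Cdc7, Prim1, Pold1, Rfc5, Rpa2, Rpa3, Fen1, Lig1, Rrm2 and Tk1, and the 5 were Orc2, Orc3, Orc5, Rfc2 and Rpa1. The median log2 ratio was -0.65 for these 43 genes and -0.21 for all measured genes. The split depended on how the arrays were scaled. With each array scaled to a common median, 10 of 43 genes passed 2-fold downwards, against 11.7% of all genes, and 10 upwards, against 23.8%. The median was then -0.14, against 0.10 for all genes. With scaling to the spiked-in control transcripts, 9 of 42 were lower, against 10.3% of all genes, and 10 higher, against 24.2%. The median was -0.04 with that scaling, against 0.11. Relative to the median of all genes the shift was thus -0.44 with the scaling used here, -0.24 with the common median and -0.15 with the spike-in scaling. In bulk RNA, fewer cells of a type and less RNA per cell cannot be told apart.

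Between type B and type A spermatogonia the counts turned on the scaling. With the scaling used here, Mcm6 and Chaf1b passed 2-fold upwards in type B spermatogonia, as 3.60% of all measured genes did, and none of the 43 was at least 2-fold lower, where 3.62% were. The median log2 ratio was 0.00, as it was for all genes. With the spike-in scaling none of 42 was at least 2-fold higher, against 0.436% of all genes, and 14 were lower, against 31.0%. The median was then -0.87, where that of all genes was -0.69. Between round spermatids and pachytene spermatocytes, with the scaling used here, Rrm2 alone was at least 2-fold higher in round spermatids, against 9.07% of all genes. Orc2, Orc3, Orc5, Gmnn and Pold2 were at least 2-fold lower, against 11.8%. The median there was -0.19, against 0.00 for all genes. Spike-in scaling gave 1 of 42 higher at that step, against 9.16% of all genes, and 8 lower, against 15.0%. The median was then -0.46, against -0.03 for all genes.

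**Figure D1:**
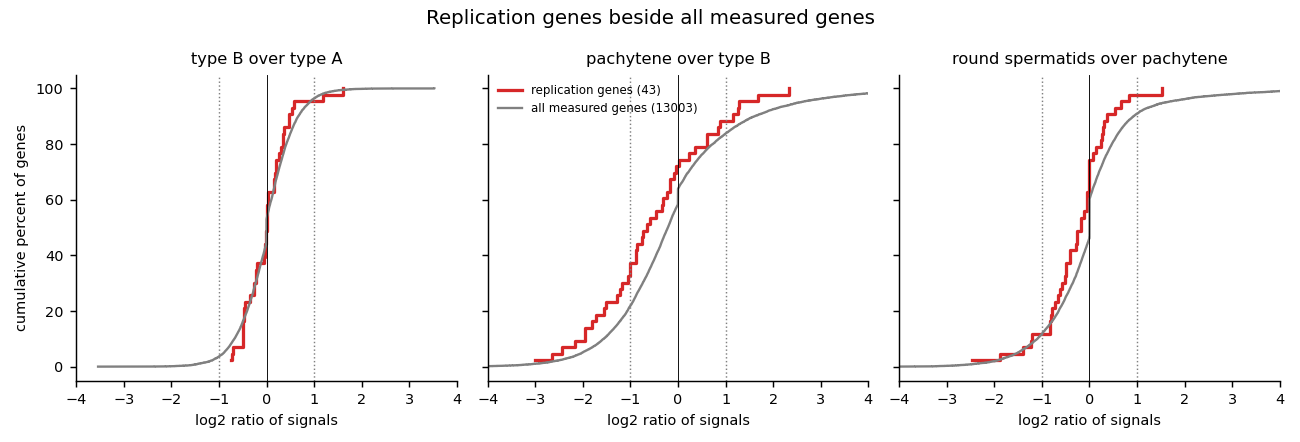
Cumulative percent of genes (vertical axis) by log2 ratio of signals (horizontal axis) for the 43 measured replication genes (red) and all 13003 measured genes (grey), at each of the 3 steps between cell types. Dotted lines mark 2-fold. The red curve lies left of the grey one in the middle panel, where the medians are -0.65 and -0.21, and close to it in the first.

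Near the 2-fold threshold, Cdc7, 2.01-fold lower, was just inside for pachytene spermatocytes over type B spermatogonia and Mcm6, 1.85-fold lower, just outside. On the higher side of that step, Rfc2 at a log2 ratio of 1.15 was inside and Gmnn at 0.88 outside. Between type B and type A spermatogonia, Mcm6 at 1.19 was inside, Prim1 at 0.57 outside on the higher side and Dut at -0.75 outside on the lower. Between round spermatids and pachytene spermatocytes, Orc5 at -1.20 and Rrm2 at 1.53 were inside and Rpa1 at -0.83 and Mcm2 at 0.82 outside.

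The 6 subunits of the MCM helicase, the motor that unwinds DNA at the fork, did not share one profile. Mcm2 read 572.2 in type A and 405.6 in type B spermatogonia, 50.2 at pachytene and 88.7 in round spermatids. Mcm3 read 549.1 in type A and 458.7 in type B spermatogonia, 119.0 at pachytene and 125.9 in round spermatids. Mcm4 gave 364.3 and 302.7 in type A and type B spermatogonia, 56.0 at pachytene and 89.0 in round spermatids. In these 3 subunits both spermatogonial types were high and both later types low, and pachytene spermatocytes were 8.08-fold lower than type B spermatogonia for Mcm2, 5.41-fold for Mcm4 and 3.86-fold for Mcm3. A second Mcm3 probe set gave a log2 ratio of -2.10 there, beside -1.95 for the first.

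The other subunits behaved otherwise by the probe sets standing for them, though Mcm5 did so by only 1 of its probe sets. Mcm7 had 503.7 in type A and 499.1 in type B spermatogonia, 760.3 at pachytene and 941.0 in round spermatids, so that its highest levels were in the later types. Mcm5 had 1589.5 and 1828.2 in type A and type B spermatogonia, 1000.5 at pachytene and 697.7 in round spermatids on U74Cv2. The U74Av2 probe set of Mcm5 gave 829.6 and 835.3 in the spermatogonial types, 127.8 in pachytene spermatocytes and 340.9 in round spermatids. By that probe set both later types were over 2-fold below both spermatogonial types, as for Mcm2, Mcm3 and Mcm4. Both Mcm5 probe sets were lower in pachytene spermatocytes relative to type B spermatogonia, by log2 ratios of -0.87 and -2.71, and they went opposite ways between round spermatids and pachytene spermatocytes, at -0.52 and 1.42. Mcm6 had 67.2 in type A and 153.5 in type B spermatogonia, 82.9 at pachytene and 16.0 in round spermatids. Its 2.28-fold higher level in type B over type A spermatogonia rests on a type A signal below the top negative control reading of that array, 69.1. Another Mcm6 probe set on U74Cv2 read 64.0 in type A and 75.7 in type B spermatogonia, 1.18-fold higher. The U74Av2 probe set of Mcm6 was under the floor in every cell type. The median log2 ratio of the 6 subunits for pachytene spermatocytes over type B spermatogonia was -1.42, and it was -0.95 with the common median scaling and -0.75 with the spike-in scaling. The choice of probe set moved the median the other way. It was -2.43 with U74Av2 probe sets taken first, where Mcm6 is not measured. Without probe sets whose name ending marks relaxed or shared design rules it was -2.27.

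**Figure D2:**
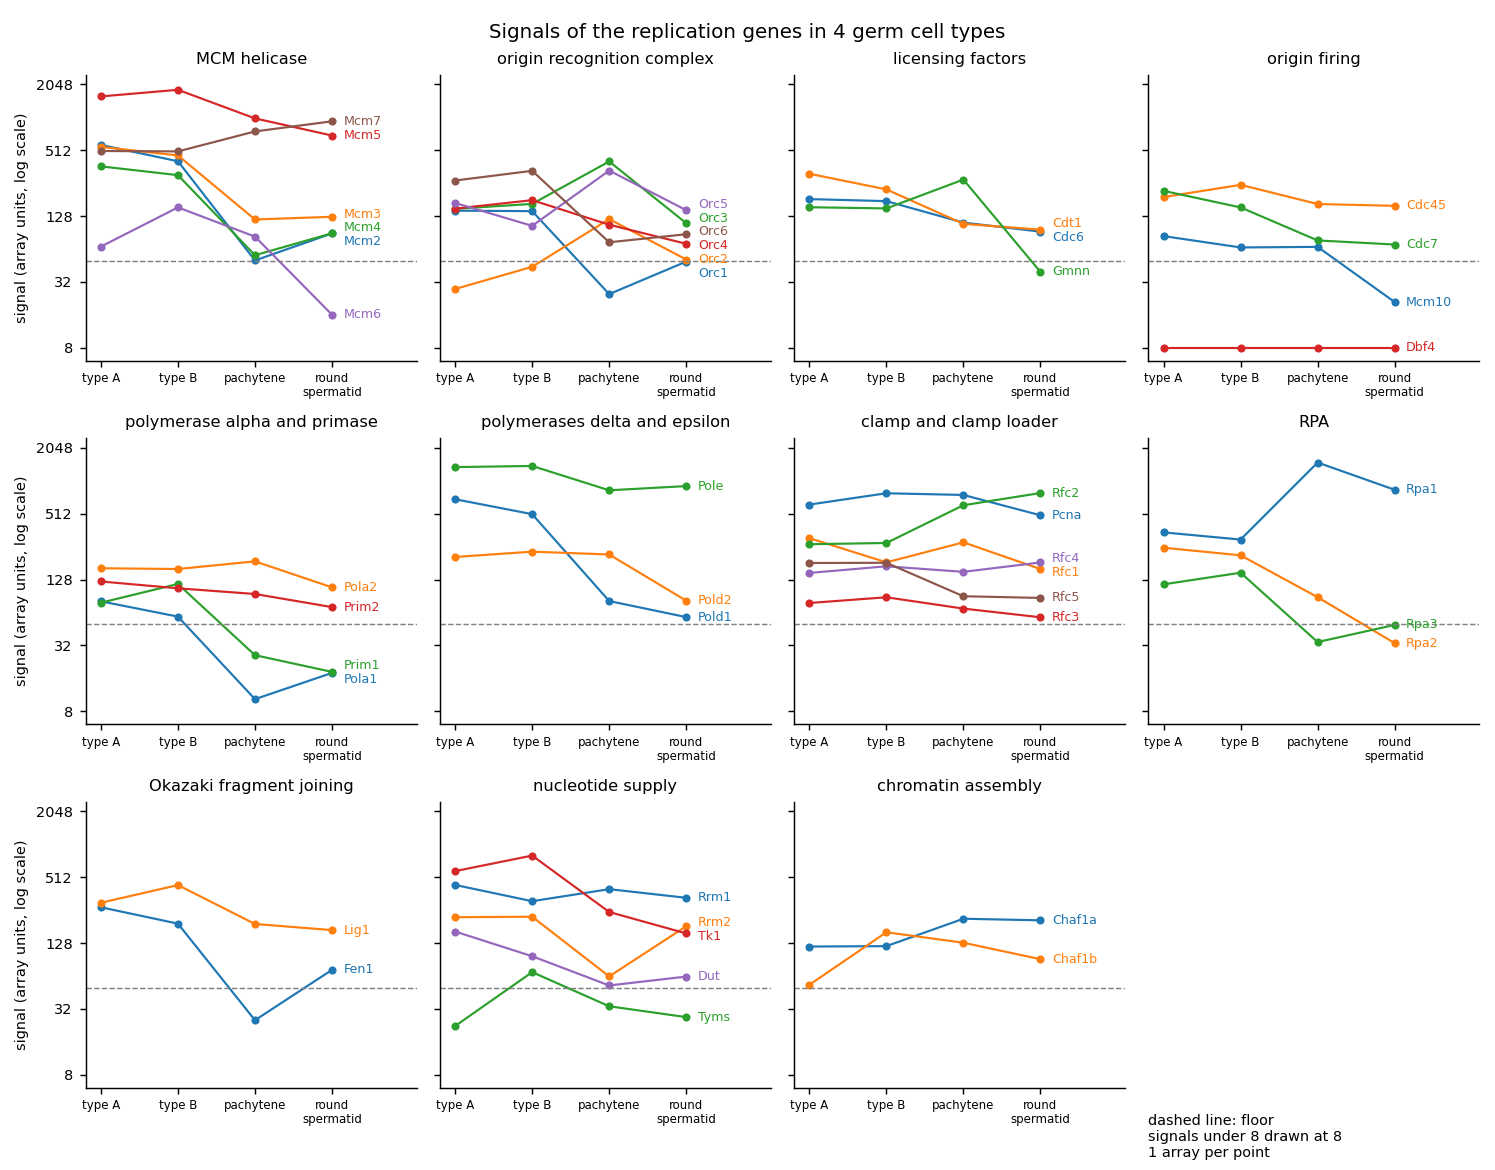
Signal in MAS5 units (vertical axis, log scale) in spermatogonia of type A and type B, pachytene spermatocytes and round spermatids for each of the 44 genes, 1 panel per complex or function and 1 line per gene, with the floor as a dashed line and signals under 8 drawn at 8. Lines of different genes are to be compared in shape only. Mcm2, Mcm3 and Mcm4 read at most 119.0 in pachytene spermatocytes and at least 302.7 in type B spermatogonia, while the line of Mcm7 climbs.

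The promoters of the MCM genes are shown because these 6 genes form 1 complex and yet differ in profile, and because genes of replication are known targets of E2F transcription factors. Each window runs from 250 bases before to 50 after the start of the gene, from RefSeq on GRCm38.p6, and is printed 5′ to 3′ on the gene's strand. Capitals mark the letters TTTCCCGC, TTTCGCGC, TTTGCCGC or TTTGGCGC on either strand, a strict form of the E2F site. The windows lie at chr6:88898731-88899030 (minus strand, Mcm2), chr1:20820263-20820562 (minus, Mcm3), chr8:75109259-75109558 (plus, Mcm5), chr1:128359656-128359955 (minus, Mcm6) and chr5:138171834-138172133 (minus, the first listed of the windows of Mcm7).
Mcm2: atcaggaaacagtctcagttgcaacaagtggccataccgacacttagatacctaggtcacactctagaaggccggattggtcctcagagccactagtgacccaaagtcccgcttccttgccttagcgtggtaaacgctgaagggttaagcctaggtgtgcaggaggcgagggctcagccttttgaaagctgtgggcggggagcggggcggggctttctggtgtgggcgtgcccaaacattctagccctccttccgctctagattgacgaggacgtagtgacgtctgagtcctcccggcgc
Mcm3: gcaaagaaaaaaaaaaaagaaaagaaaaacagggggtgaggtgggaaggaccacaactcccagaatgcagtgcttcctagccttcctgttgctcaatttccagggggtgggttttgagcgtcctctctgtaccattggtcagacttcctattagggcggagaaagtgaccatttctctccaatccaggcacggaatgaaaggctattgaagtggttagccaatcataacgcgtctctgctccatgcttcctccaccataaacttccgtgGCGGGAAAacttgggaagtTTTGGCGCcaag
Mcm5: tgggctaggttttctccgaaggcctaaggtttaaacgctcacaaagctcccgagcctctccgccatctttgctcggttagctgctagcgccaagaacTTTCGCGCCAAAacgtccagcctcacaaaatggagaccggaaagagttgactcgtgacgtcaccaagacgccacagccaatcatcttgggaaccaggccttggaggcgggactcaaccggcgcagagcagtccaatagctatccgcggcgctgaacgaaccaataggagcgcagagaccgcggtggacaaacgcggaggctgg
Mcm6: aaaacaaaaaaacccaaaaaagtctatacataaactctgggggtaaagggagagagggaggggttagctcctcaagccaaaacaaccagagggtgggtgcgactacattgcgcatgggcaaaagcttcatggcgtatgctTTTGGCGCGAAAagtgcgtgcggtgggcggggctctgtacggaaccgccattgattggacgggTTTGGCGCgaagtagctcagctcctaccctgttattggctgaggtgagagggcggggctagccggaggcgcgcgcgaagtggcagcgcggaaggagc
Mcm7: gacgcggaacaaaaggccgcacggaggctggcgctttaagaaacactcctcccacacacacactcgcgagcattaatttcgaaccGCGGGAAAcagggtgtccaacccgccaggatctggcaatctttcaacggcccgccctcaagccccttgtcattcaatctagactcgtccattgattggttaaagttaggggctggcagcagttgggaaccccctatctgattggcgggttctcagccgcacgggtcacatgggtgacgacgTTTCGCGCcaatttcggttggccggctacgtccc

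Mcm3 held 2 such matches, Mcm5 2, Mcm6 3 and Mcm7 2, and Mcm2 none in this window. The matches of Mcm3 began 20 and 39 bases after the start of the gene, those of Mcm5 153 and 149 bases before it, those of Mcm6 110, 106 and 47 bases before it, and those of Mcm7 165 bases before and 17 after it. The pair in Mcm5 and the first pair in Mcm6 overlap each other, and the second of Mcm7 overlaps a CCAAT box. Mcm7, with its higher level in pachytene spermatocytes relative to type B spermatogonia, and Mcm3, with its lower one, thus both carried these letters, and Mcm2, with the lowest ratio of the 44, did not. A match is a description of the letters and not of a bound site.

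Mcm4, Gmnn, Prim2, Pole and Rfc2 had no promoter entry. Over the replication genes with one, 39 of 44, the E2F letters stood in 11, or 28.2%, against 2.32% of 27025 promoters and 3.86% of the 10387 promoters of measured genes. They stood in 4 of 15 genes at least 2-fold lower in pachytene spermatocytes relative to type B spermatogonia, in 1 of 4 at least 2-fold higher and in 6 of 20 that were neither. The letters CCAAT, on either strand, stood in 22 of 39 (56.4%, against 37.9% of all promoters), TGACGTCA of the cyclic AMP response element in 2 (5.13%, against 1.88%) and TAACNG of the MYB site in 9 (23.1%, against 23.2%).

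The origin recognition complex, which marks the origins, split between its subunits. Orc1 read 143.2 in type A and 141.8 in type B spermatogonia, 24.7 at pachytene and 49.0 in round spermatids. Orc6 read 270.4 and 331.7 in type A and type B spermatogonia, 73.6 at pachytene and 87.2 in round spermatids. Orc1 was thus at least 2.83-fold lower and Orc6 4.51-fold lower in pachytene spermatocytes relative to type B spermatogonia, and both stayed low in round spermatids.

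The subunits Orc2, Orc3 and Orc5, peaked in pachytene spermatocytes. Orc2 gave 27.5 in type A and 43.9 in type B spermatogonia, both under the floor, 119.9 in pachytene spermatocytes and 51.2 in round spermatids. Orc3 gave 148.9 and 165.2 in type A and type B spermatogonia, 403.8 at pachytene and 110.0 in round spermatids. Orc5 gave 168.5 and 104.0 in the spermatogonial types, 333.3 in pachytene spermatocytes and 144.7 in round spermatids. Pachytene spermatocytes were at least 2.40-fold higher than type B spermatogonia for Orc2, 2.44-fold for Orc3 and 3.20-fold for Orc5, and round spermatids were 2.34-fold, 3.67-fold and 2.30-fold lower than pachytene spermatocytes. In pachytene spermatocytes Orc2 and Orc3 passed 2-fold over each other cell type, as did 3.72% of measured genes. For Orc3 a second probe set, on U74Cv2, went the other way, with 114.5 and 98.0 in the spermatogonial types, 45.0 in pachytene spermatocytes and 33.1 in round spermatids. Orc4, with 149.6 and 178.7 in type A and type B spermatogonia, 106.5 at pachytene and 71.3 in round spermatids, passed 2-fold at no step.

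Licensing factors load the helicase and geminin, the product of Gmnn, blocks Cdt1 to stop a second loading. Cdc6 read 182.8 in type A and 175.1 in type B spermatogonia, 111.4 at pachytene and 92.1 in round spermatids. Cdt1 read 311.9 and 224.2 in type A and type B spermatogonia, 108.5 at pachytene and 96.0 in round spermatids. Cdt1 was 2.07-fold lower in pachytene spermatocytes relative to type B spermatogonia, and a second probe set gave a log2 ratio of -2.10 there, beside -1.05. Gmnn, in contrast to the loaders, was highest in pachytene spermatocytes, with 154.0 in type A and 150.2 in type B spermatogonia, 275.7 at pachytene and 39.4 in round spermatids. Round spermatids were at least 5.51-fold lower than pachytene spermatocytes for Gmnn, and no other of the 44 genes differed more at that step with the probe sets used here.

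Among the factors that fire origins, Cdc7, the kinase that phosphorylates MCM proteins, had 217.4 in type A and 153.4 in type B spermatogonia, 76.5 at pachytene and 70.2 in round spermatids. Cdc45, which joins the active helicase, had 190.8 and 246.8 in type A and type B spermatogonia, 164.8 at pachytene and 158.6 in round spermatids. Cdc7 was 2.01-fold lower in pachytene spermatocytes relative to type B spermatogonia, and Cdc45 did not reach 2-fold. A second Cdc45 probe set, on U74Cv2, gave 62.4 in type A and 250.7 in type B spermatogonia, 38.4 at pachytene and 64.8 in round spermatids, which is steeper in both directions. Mcm10, a scaffold between helicase and polymerase alpha, was near the floor, with 83.8 and 66.0 in type A and type B spermatogonia, 66.8 at pachytene and 20.9 in round spermatids. Its other probe sets went lower in pachytene spermatocytes relative to type B spermatogonia, by at least 1.77-fold for the one on U74Av2, beside a log2 ratio of 0.02 for the first. Dbf4, the activating partner of Cdc7, read between 0.3 and 6.9 in the 4 cell types on its probe set, which gives no level.

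Polymerase alpha and primase lay down the RNA-DNA primers, and their catalytic subunits were under the floor in both later types. Pola1, the catalytic subunit and an X-linked gene, read 80.9 in type A and 58.6 in type B spermatogonia and was under the floor at 10.3 in pachytene spermatocytes and 17.9 in round spermatids. Prim1, the catalytic primase subunit, read 78.6 and 116.6 in type A and type B spermatogonia, 26.0 at pachytene and 18.3 in round spermatids. Prim1 was at least 2.33-fold lower in pachytene spermatocytes relative to type B spermatogonia. The regulatory subunits were flatter: Pola2 had 162.3 and 159.8 in type A and type B spermatogonia, 187.8 at pachytene and 108.6 in round spermatids. Prim2 had 122.9 and 106.4 in the spermatogonial types, 94.4 in pachytene spermatocytes and 71.6 in round spermatids. A second Pola2 probe set was 2.49-fold higher in pachytene spermatocytes relative to type B spermatogonia.

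The catalytic subunits of the extending polymerases differed. Pold1, of the lagging strand polymerase delta, read 695.4 in type A and 507.3 in type B spermatogonia, 81.4 at pachytene and 58.0 in round spermatids on U74Cv2. It was 6.23-fold lower in pachytene spermatocytes relative to type B spermatogonia, and its U74Av2 probe set, with 521.4 and 358.4 in the spermatogonial types, 140.0 in pachytene spermatocytes and 174.3 in round spermatids, was 2.56-fold lower. Pole, of the leading strand polymerase epsilon, had 1367.7 and 1401.3 in type A and type B spermatogonia, 839.0 at pachytene and 916.8 in round spermatids. It was 1.67-fold lower in pachytene spermatocytes relative to type B spermatogonia. Pold2, the second subunit of polymerase delta, kept its level one step longer, with 205.9 and 230.3 in the spermatogonial types and 217.0 in pachytene spermatocytes, and was 2.65-fold lower in round spermatids, at 82.0.

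The clamp and its loader were mostly flat. Pcna, the sliding clamp, had 621.1 in type A and 788.3 in type B spermatogonia, 760.4 at pachytene and 495.7 in round spermatids. Its log2 ratio of -0.05 for pachytene spermatocytes over type B spermatogonia was smaller than the technical SD. Rfc1, the large subunit of the clamp loader, had 306.1 and 183.9 in type A and type B spermatogonia, 280.2 at pachytene and 159.7 in round spermatids. Rfc3 lay between 57.8 and 88.1 and Rfc4 between 147.1 and 183.5 over the 4 cell types, with no step near 2-fold. The remaining small subunits went opposite ways. Rfc2 read 269.4 and 276.5 in type A and type B spermatogonia, 612.6 at pachytene and 792.1 in round spermatids, 2.22-fold higher in pachytene spermatocytes relative to type B spermatogonia. Rfc5 read 181.4 and 182.2 in the spermatogonial types, 90.0 in pachytene spermatocytes and 86.9 in round spermatids, 2.02-fold lower at that step. The median log2 ratio of this group for pachytene spermatocytes over type B spermatogonia was -0.11, and it turned to 0.41 with the common median scaling and 0.56 with the spike-in scaling.

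RPA binds single-stranded DNA as a complex of 3 subunits, in replication and on the resected breaks of meiosis. Rpa1, the large subunit, read 345.6 in type A and 297.2 in type B spermatogonia, 1505.8 at pachytene and 848.6 in round spermatids. Rpa2 read 250.3 and 213.2 in type A and type B spermatogonia, 88.3 at pachytene and 33.5 in round spermatids. Rpa3 read 115.7 and 147.8 in type A and type B spermatogonia, 34.3 at pachytene and 49.2 in round spermatids. Rpa1 was 5.07-fold higher in pachytene spermatocytes relative to type B spermatogonia while Rpa2 was 2.42-fold lower and Rpa3 at least 2.95-fold lower, so the transcripts of 1 complex differed in direction. A second Rpa2 probe set, on U74Av2, gave a log2 ratio of -1.47 there. It read 96.8 in type A and 141.0 in type B spermatogonia, 51.0 at pachytene and 79.5 in round spermatids. At the other steps it went the opposite way to the first, and its type A signal was within 2-fold of that in round spermatids. A second probe set of Rpa1, on U74Cv2 and near the floor throughout, read 58.3 in pachytene spermatocytes against 17.7 in type B spermatogonia. The 58.3 lies below the highest negative control of that array, 61.2. In round spermatids that probe set read 74.1, a log2 ratio of 0.35 over pachytene spermatocytes, where the first gave -0.83.

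Both genes of Okazaki fragment joining were lower in pachytene spermatocytes. Fen1, the flap nuclease, had 272.2 in type A and 192.7 in type B spermatogonia, 25.2 at pachytene and 72.8 in round spermatids. Lig1, the replicative ligase, had 299.4 and 434.3 in type A and type B spermatogonia, 191.4 at pachytene and 168.3 in round spermatids. Pachytene spermatocytes were at least 3.85-fold lower than type B spermatogonia for Fen1 and 2.27-fold lower for Lig1.

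Ribonucleotide reductase, which makes deoxyribonucleotides, showed different profiles for its subunits. Rrm1, the large subunit, read 435.5 in type A and 309.3 in type B spermatogonia, 398.5 at pachytene and 332.2 in round spermatids, within 2-fold at every step. Rrm2, the small subunit used in S phase, read 220.7 and 223.0 in type A and type B spermatogonia, 63.4 at pachytene and 182.5 in round spermatids. Rrm2 was 3.52-fold lower in pachytene spermatocytes relative to type B spermatogonia and 2.88-fold higher in round spermatids than in pachytene spermatocytes. It was the 1 gene of the 43 that was at least 2-fold lower in pachytene spermatocytes than in each other cell type, a pattern of 1.83% of measured genes. For Rrm1 a second probe set, near the floor, read 36.6 in pachytene spermatocytes against 80.8 in type B spermatogonia.

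Of the enzymes of thymidine nucleotides, Tk1, the S phase thymidine kinase, had 583.1 in type A and 808.5 in type B spermatogonia, 246.3 at pachytene and 156.8 in round spermatids. It was 3.28-fold lower in pachytene spermatocytes relative to type B spermatogonia, and other Tk1 probe sets gave log2 ratios of -1.45 and -0.56, with a bound of -0.22. Dut, which removes dUTP, had 163.2 and 97.0 in type A and type B spermatogonia, 52.4 at pachytene and 63.2 in round spermatids. Tyms, thymidylate synthase, passed the floor only in type B spermatogonia, at 69.4, which is below the highest negative control of that array.

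The CAF-1 subunits Chaf1a and Chaf1b place histones on new DNA. Chaf1a read 119.0 in type A and 120.0 in type B spermatogonia, 213.7 at pachytene and 206.7 in round spermatids. Chaf1b read 53.1 and 160.8 in type A and type B spermatogonia, 128.9 at pachytene and 91.2 in round spermatids. Chaf1b was 3.03-fold higher in type B than in type A spermatogonia, where it lay just over the floor. Its log2 ratio of 1.60 became 0.72 with the spike-in scaling and 0.68 with a floor 2 times as high, both under 2-fold. The signal of Chaf1a was higher in both later types than in both spermatogonial types without reaching 2-fold at a step.

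**Figure D3:**
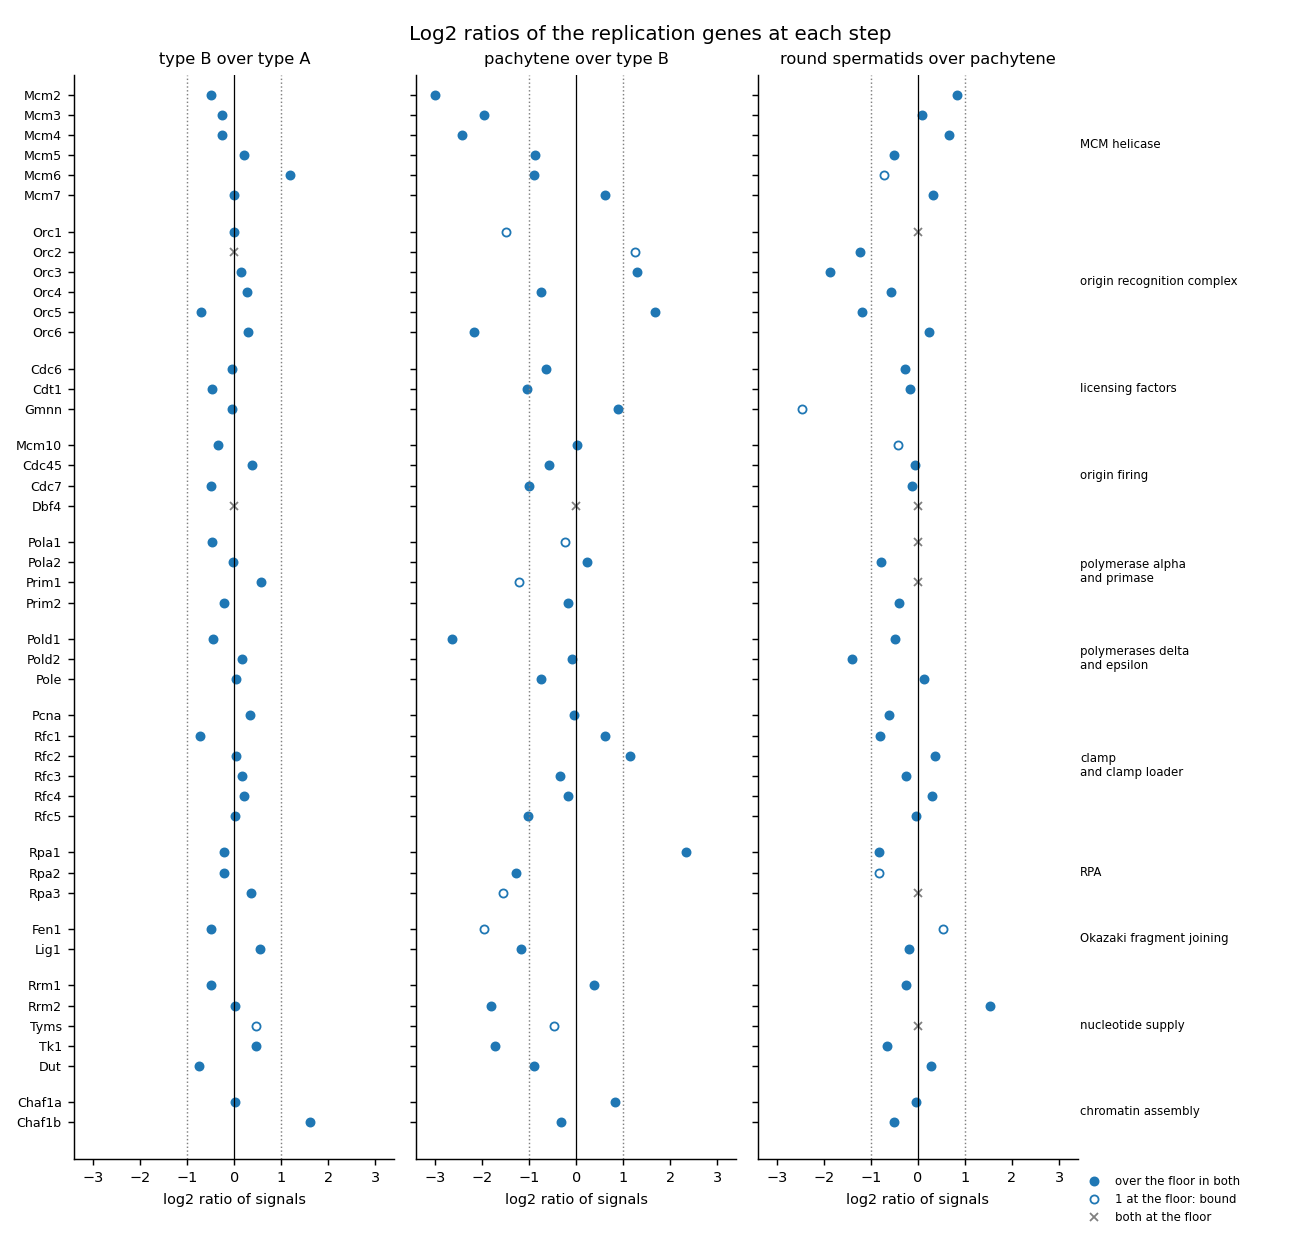
Log2 ratio of signals (horizontal axis) for each of the 44 genes (rows, grouped by complex) at the 3 steps between cell types (panels). Open circles are lower bounds in size, crosses genes at the floor in both cell types, and dotted lines 2-fold. The middle panel spreads from -3.01 for Mcm2 to 2.34 for Rpa1, while with this scaling the first panel lies within 2-fold except for Mcm6 and Chaf1b.

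Over all 4 cell types, both spermatogonial types were at least 2-fold higher than both later types for 13 of the 43 genes, against 12.5% of measured genes. By the probe set standing for each gene, these were Mcm2, Mcm3, Mcm4, Orc1, Orc6, Cdt1, Cdc7, Pold1, Rfc5, Rpa2, Rpa3, Fen1 and Tk1. This count was made only with the scaling and floor used here. Among the 13, only Mcm2, Mcm3, Mcm4 and Orc6 stayed 2-fold lower in pachytene than in type B cells under all settings but the 4-fold threshold. Both later types were at least 2-fold higher than both spermatogonial types for Rfc2 and Rpa1, against 9.02% of measured genes. With no threshold of size, the later types were below both spermatogonial types without overlap for 25 genes, against 39.4% of measured genes, and above both for 5, against 21.2%. The 5 were Mcm7, Orc2, Rfc2, Rpa1 and Chaf1a.

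Probe sets of the same gene differed, which limits these values. The 44 genes had 79 probe sets, 22 genes had more than 1, and 9 genes were represented by a probe set whose name ending marks relaxed or shared design rules. For pachytene spermatocytes over type B spermatogonia, 21 further probe sets could be measured, of which 17 had the direction of the first and 4 the opposite one. The ratio differed by over 2-fold for 12 of the 21, or 57.1%, against 36.2% of such probe sets over all genes. Beside the genes at least 2-fold different at that step stood 12 of these probe sets. Of them 11 had the same direction, 5 also by at least 2-fold, and 1, that of Orc3, the opposite. At the other steps, 11 of 20 further probe sets had the direction of the first and 9 the opposite for type B over type A spermatogonia, and 5 of 15 the same and 10 the opposite for round spermatids over pachytene spermatocytes.

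**Figure D4:**
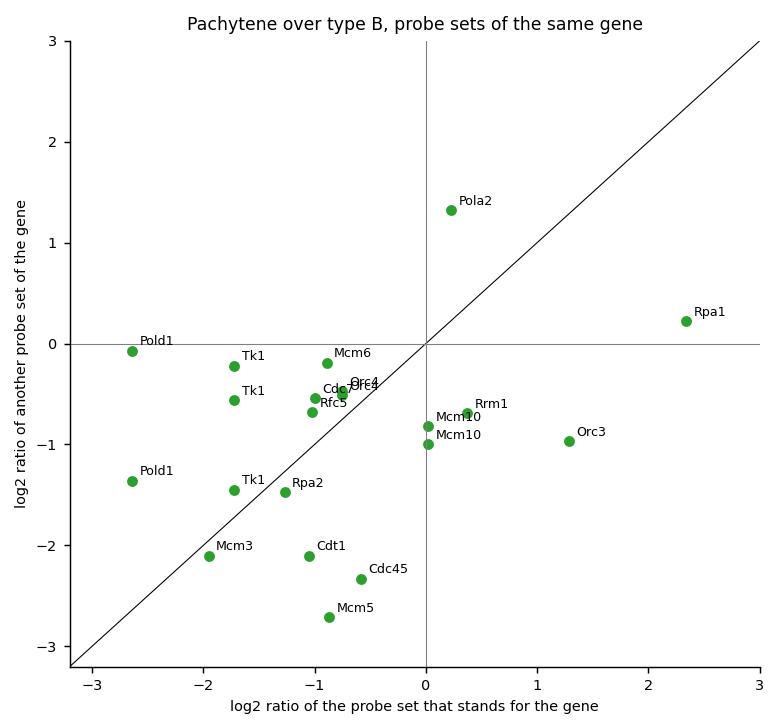
Log2 ratio of pachytene spermatocytes over type B spermatogonia by each further probe set (vertical axis) against that of the probe set standing for the gene (horizontal axis), for the genes with more than 1 measured probe set. The line marks equal ratios. Of 21 points, 17 lie on the same side of 0 on both axes, and Orc3 and Rrm1 are among the 4 that do not.

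Other genes of the pathway were set beside the 44. Of 89 listed genes 84 were on the arrays and 79 measured. For pachytene spermatocytes over type B spermatogonia 30 of them passed 2-fold downwards and 4 upwards, beside 21.9% and 16.2% of all measured genes, and their median log2 ratio was -0.55. That median was -0.04 with the common median scaling and 0.00 with the spike-in scaling. By function, at least 2-fold lower genes numbered 7 of 11 for GINS and fork protection, 8 of 17 for other nucleotide enzymes, 11 of 28 for E2F, RB and entry into S phase, 2 of 12 for other polymerase subunits, 1 of 8 for other chromatin assembly and 1 of 3 for other clamp loaders. Of the 7, Gins1 turned its direction, with a log2 ratio of -1.02 by this probe set and 0.89 without special endings. Atad5, which unloads PCNA, had 63.5 in pachytene spermatocytes against 796.7 in type B spermatogonia, and Cks1b, a partner of cyclin-dependent kinases, 59.1 against 381.7. Clspn, which relays fork stress to Chk1, and Hat1, which acetylates new histone H4, were under the floor at 41.1 and 39.0 in pachytene spermatocytes, against 303.9 and 303.3 in type B spermatogonia.

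The 4 genes that went the other way were a nuclease subunit, 2 chromatin proteins and a kinase inhibitor. Rnaseh2a, of the enzyme that removes ribonucleotides from DNA, had 911.0 in pachytene spermatocytes against 103.4 in type B spermatogonia. Cdkn2c, an inhibitor of Cdk4 and Cdk6, had 942.1 against 188.9. Nasp, a histone chaperone, had 1155.6 against 278.6, and Uhrf1, which guides maintenance methylation, 612.9 against 278.4.

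At the other steps fewer of the 79 genes passed 2-fold. Of all measured genes, 3.60% were higher and 3.62% lower in type B over type A spermatogonia. Of the 79, 2 were higher at that step, Nme1 and Dtymk, both enzymes of nucleotide phosphorylation. The 3 lower ones were E2f8, Skp2 and Rb1, of which E2f8 and Skp2 turned sign with another probe set. In round spermatids over pachytene spermatocytes 6 of the 79 were higher, beside 9.07% of all measured genes, and 5 lower, beside 11.8%. Ccnd3, a D-type cyclin, had 542.9 in round spermatids against 17.1 in pachytene spermatocytes, and Tipin, of the fork protection complex, 260.8 against 25.1. E2f5 had 210.7 against 45.3 and Hat1 208.3 against 39.0. Lower in round spermatids were Tfdp1, the E2F partner, with 143.8 against 683.0 in pachytene spermatocytes, Cdk2 with 87.3 against 325.9, Rbbp4 with 699.2 against 1718.7 and Rbl1 with 70.0 against 158.7.

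**Figure D5:**
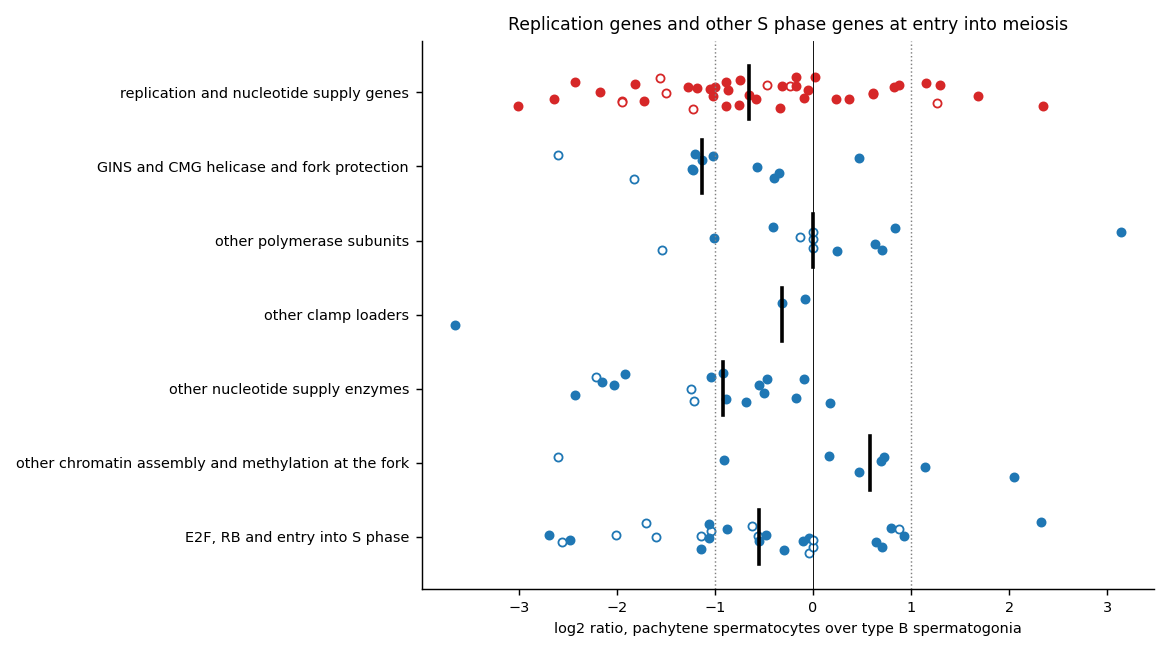
Log2 ratio of pachytene spermatocytes over type B spermatogonia (horizontal axis) for the measured replication and nucleotide supply genes (red) and for other measured genes of the pathway by list (blue), 1 point per gene. Open circles have 1 or both cell types at the floor, and black bars are medians. The medians are -0.65 for the red points, -1.13 for GINS and fork protection, -0.92 for other nucleotide enzymes and 0.58 for other chromatin assembly.

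The cell types were checked against marker lists, with sums of signals over different probe sets, which a few bright ones can set. Of 8 pachytene markers 5 passed 2-fold upwards in pachytene spermatocytes relative to type B spermatogonia and none downwards. They summed to 1650 in type A and 1738 in type B spermatogonia, 23582 at pachytene and 26508 in round spermatids, mostly from Hspa2 and Ldhc, at 12267.7 and 8690.7 in pachytene spermatocytes. Sycp1 went the other way, with 220.0 in pachytene spermatocytes against 318.7 in type B spermatogonia, and Sycp3 read only 60.4 in pachytene spermatocytes. Markers of round spermatids summed to 335 in type A and 410 in type B spermatogonia, 5759 at pachytene and 46228 in round spermatids.

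Of 6 markers of differentiating spermatogonia 4, Kit, Dmrt1, Stra8 and Sohlh2, were at least 2-fold lower in pachytene spermatocytes relative to type B spermatogonia, and Dmrtb1 was higher, at 2376.4 against 208.6. This list summed to 2528 in type A and 1702 in type B spermatogonia, 2547 at pachytene and 3905 in round spermatids. Of 7 measured markers of type A and undifferentiated spermatogonia 4 were at least 2-fold lower at that step and 1, Id4, higher, at 173.0 against 39.6. Between type B and type A spermatogonia 2 of these 7 were at least 2-fold lower and 1, Sall4, higher, at 647.0 against 247.7. They summed to 1655 in type A and 1422 in type B spermatogonia, 480 at pachytene and 878 in round spermatids.

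Somatic markers differed between pachytene spermatocytes and type B spermatogonia as well: 8 fibroblast markers summed to 236 in pachytene spermatocytes against 12186 in type B spermatogonia, with Lum, Bgn, Col1a1, Col1a2, Col3a1 and Pdgfra under the floor in pachytene spermatocytes, and 7 of the 8 were at least 2-fold lower there. In type A spermatogonia they summed to 5271 and in round spermatids to 557.

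Of 7 peritubular myoid markers 5 were at least 2-fold lower in pachytene spermatocytes relative to type B spermatogonia (sums of 834 against 4365), of 6 measured markers of macrophages and leukocytes 4 (348 against 845), and of 10 measured Sertoli markers 2 (3728 against 5036). Of 6 measured Leydig markers 1 was at least 2-fold lower and 1 higher (796 against 825). Of the others, 1 each of 3 erythroid (267 against 1019) and 3 endothelial markers (169 against 396) was at least 2-fold lower. In round spermatids the Sertoli markers summed to 1701 and the Leydig markers to 202, with 3 of each at least 2-fold lower than in pachytene spermatocytes. The myoid, leukocyte, erythroid and endothelial lists summed higher in round than in pachytene cells, to 1950, 443, 333 and 174. Ptprc and Adgre1, of leukocytes, were under the floor in all 4 cell types, as was Amh, of Sertoli cells. The part of somatic cells in the ratios of the replication genes was not tested.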

How the data were processed

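Total RNA of each cell type was hybridised to 1 array per design, per the labels. The authors deposited linear intensity values, 1 signal per probe set, which MAS5 computed according to the submitters' processing notes; the sources used here name no version. Their 2% trimmed means lay between 125.0 and 125.1 on all 12 arrays.

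Within a design, arrays were brought to the geometric mean of their trimmed means, floored at 0.4 of it and put on the log2 scale. Names came from the platform annotation, of which 29044 of 29131 with 1 symbol matched the RefSeq table of GRCm38.p6. The 724 probe sets with several symbols were left out, and 3 of these carried the symbol of a gene described here. Percentages of all genes refer to those measured, that is, not at the floor throughout. For lack of replicates there was no test. The 44 genes and the gene lists were chosen with earlier results of these data known. By rule all 44 were named, up to 4 other pathway genes in each direction at a step, and further probe sets where they differed or the gene was singled out. The marker genes named were chosen after their values were seen. Alternatives changed the scaling, the floor, the choice of probe set and the threshold. Scripts used Python 3.11.15, numpy 2.4.6 and pandas 2.3.3 and were tested on simulated data.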

Additional observations from a re-analysis of the deposited data

How the results depend on the processing

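There were 11 alternatives and no replicates to leave out. No paired analysis was possible because each cell type has 1 array per design. The number of arrays limits the precision, and signals near the floor limit weak genes. No gene of the 44 that differed by at least 2-fold turned its direction under any setting. The genes that kept a 2-fold difference under all settings but the 4-fold threshold were Mcm2, Mcm3, Mcm4, Orc6 and Rrm2 (5 of 16 lower) and Rfc2 (1 of 5 higher) in pachytene spermatocytes over type B spermatogonia, and Gmnn and Pold2 (2 of 5 lower) in round spermatids over pachytene spermatocytes, where Pold2 has no value without special endings and so stands on 9 settings. Percentages in brackets below are the shares of all genes under the same setting. For type B over type A spermatogonia (2 higher, 0 lower, median 0.00), spike-in scaling gave 0 higher (0.436%) and 14 lower (31.0%). The median was -0.87 with that scaling, where the median of all genes was -0.69. No floor gave 3 higher (10.9%) and 1 lower (7.85%), and a floor 2 times as high 0 higher (1.78%). With the U74Av2 probe set first (3.28%), with U74Av2 only (2.62%) and without special endings (about 3%), 1 was higher each. For pachytene spermatocytes over type B spermatogonia (5 higher, 16 lower, median -0.65), scaling to a common median gave 10 higher (23.8%), 10 lower (11.7%) and -0.14. Spike-in scaling gave 10 higher (24.2%), 9 lower (10.3%) and -0.04. The higher floor gave 10 lower (16.7%) and the mean over probe sets 1 higher (12.5%). For round spermatids over pachytene spermatocytes (1 higher, 5 lower), spike-in scaling gave 8 lower (15.0%) and no floor 3 higher (15.4%) and 8 lower (17.2%). The higher floor gave 0 higher (8.02%) and the mean over probe sets 2 lower (7.37%). The U74Av2 probe set first (9.10%), U74Av2 only (6.95%) and leaving out special endings (8.44%) gave 2 higher each. At 4-fold the counts were 0 higher (0.154%), 1 higher (7.46%) with 4 lower (5.14%), and 0 higher (3.84%) with 1 lower (1.96%) at the 3 steps. Sign changed for E2f8 in type B over type A spermatogonia (0.06 with the U74Av2 probe set first and with U74Av2 only), for Skp2 there (0.21) and for Gins1 in pachytene spermatocytes over type B spermatogonia (0.89), the last 2 without special endings. The cause was not tested.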
